A study of Homo sapiens with 6 samples.

Results

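The 10 genes described here encode the enzymes and the carrier that make, use or move succinate in the mitochondrion, and they are SDHA, SDHB, SDHC, SDHD, SUCLG1, SUCLG2, SUCLA2, FH, OGDH and SLC25A10. They were chosen by name because succinate is the ligand of GPR91, and all 10 were found among the 19937 gene rows of the deposited table. RNA sequencing covered 6 libraries of the human neuroblastoma cell line SK-N-BE(2), of which 3 are titled sgGPR91 and 3 are titled sgcon. The series design describes a knockout of GPR91, the succinate receptor encoded by SUCNR1, and its title names chemoresistance. All 6 libraries came from cells treated for 48 hours, given as doxorubicin at 100 nmol/L in the treatment tags and as DOX at 1.5 µg/ml in the growth protocol, so no untreated level was analysed here. The genotype tags call the sgGPR91 libraries control and the sgcon libraries GPR91 knockout, which contradicts the titles. Directions here follow the titles, and all of them would be the opposite by the tags. No label says how many guides or clones stood behind a group, or that the replicates were grown separately. The p-values therefore measure the spread among 3 libraries a group, and that spread may be technical only.

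In the tricarboxylic acid (TCA) cycle, the 2-oxoglutarate dehydrogenase complex makes succinyl-CoA, and succinyl-CoA ligase turns it into succinate while forming ATP or GTP. Succinate dehydrogenase, which is also complex II of the respiratory chain, oxidises succinate to fumarate and passes the electrons to ubiquinone, and fumarase hydrates fumarate to malate. Loss of succinate dehydrogenase or fumarase lets succinate or fumarate build up, and inherited loss of succinate dehydrogenase subunits is a known cause of paraganglioma and phaeochromocytoma, tumours of the same sympathoadrenal lineage as neuroblastoma. Succinate that leaves the mitochondrion and the cell can bind GPR91 at the cell surface.

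The libraries held 8198952 to 8876172 counts in sgGPR91 and 7070189 to 10252425 in sgcon. SUCNR1 had 1 read over the sgGPR91 libraries and 3 reads over the sgcon libraries, with exact Poisson 95% intervals of 0.0253 to 5.57 and 0.619 to 8.77 reads that cover counting error only, so no difference in the targeted transcript could be detected at this depth, and it did not show which label was right. All 13 sympathetic neuroblastoma markers were expressed, and in sgGPR91 2 of them were called higher and 10 lower. Fewer cells of a type and less RNA per cell cannot be told apart in such bulk libraries. Markers of other cell types were summed as CPM, read counts scaled to a common library total. Endothelial markers came to 0.604 to 1.59 CPM in sgGPR91 and 0.559 to 1.52 CPM in sgcon, leukocyte markers to 2.24 to 4.76 and 1.78 to 3.02 CPM with CD68, CD3E and LYZ at 0 and CD14 called higher (20, 13 and 13 reads in sgGPR91 and 8, 3 and 3 reads in sgcon), epithelial markers to 7.94 to 10.4 and 12.6 to 18.2 CPM, and mesenchymal markers, led by LUM, to 657.3 to 698.8 and 634.4 to 691.4 CPM, with PDGFRA and THY1 called higher and COL1A1 lower. Reads from the mitochondrial genome made up 3.36 to 3.91% of counts in sgGPR91 and 2.15 to 2.45% in sgcon. The part of these shifts in the results below was not tested.

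Of the 10 genes, 3 rose in the libraries labelled sgGPR91 and 0 fell, by edgeR's quasi-likelihood test at a Benjamini-Hochberg adjusted p under 0.05 over all 12701 genes tested. They were SDHC, FH and SDHB, at 1.54-fold, 1.25-fold and 1.22-fold. Over all genes tested, 20.2% were called higher, 21.0% lower and 41.1% in either direction, so 3 of 10 is near that background and is no result about the 10 as a set. At an unadjusted p under 0.05, 3 were higher and 1, SUCLG2, was lower, and DESeq2 called 2 higher and 0 lower. Their median log2 fold change was 0.08, against -0.01 over all genes tested. The libraries of the groups did not overlap for 2 of the 10, SDHC and FH, both higher in sgGPR91, while 50.9% of all genes tested had no overlap, 25.7% higher and 25.2% lower. All 10 passed the filter on low counts, and they shared 26830 reads over the 6 libraries.

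**Figure D1:**
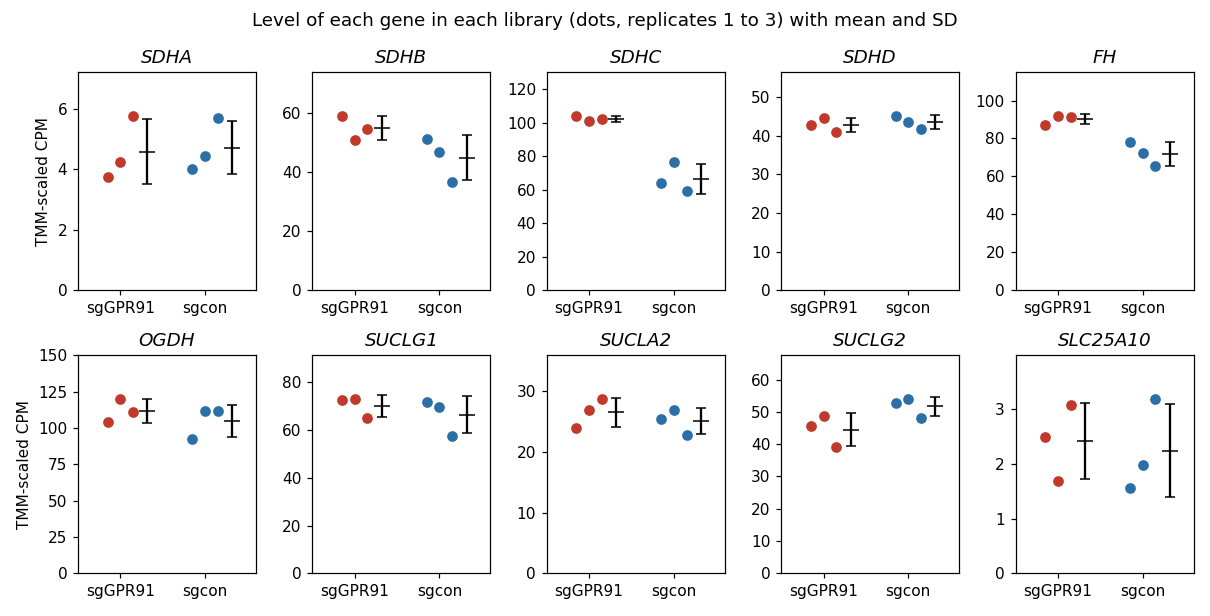
TMM-scaled CPM of each of the 10 genes in each library, with replicates 1 to 3 as dots from left to right, and the group mean ± SD (n = 3) as the bar beside them. All sgGPR91 libraries lie above all sgcon libraries for SDHC and FH, and the groups overlap for the other 8 genes.

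Succinate dehydrogenase has 4 subunits. SDHC and SDHD anchor the enzyme in the inner membrane and form the ubiquinone site. SDHC (ENSG00000143252, chromosome 1, 161314381 to 161363206, plus strand) had 104.4, 100.9 and 102.3 CPM in sgGPR91 replicates 1 to 3 and 64.0, 76.5 and 59.0 CPM in sgcon replicates 1 to 3. Every sgGPR91 library was higher than every sgcon library, and the sgGPR91 libraries lay close together, at 102.6 ± 1.76 CPM against 66.5 ± 8.99 CPM in sgcon (SD, n = 3 each). The log2 fold change was 0.62 ± 0.09 (SE), with a 95% interval of 0.43 to 0.81 and an edgeR adjusted p of 3.773e-05. SDHC kept its call under all 15 alternatives tried, with log2 fold changes of 0.54 to 0.73.

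The other membrane anchor did not follow it. SDHD (ENSG00000204370, chromosome 11, 112086824 to 112120016, plus strand) had 42.9, 44.5 and 41.0 CPM in sgGPR91 and 45.3, 43.6 and 41.8 CPM in sgcon. The groups overlapped, and all 6 libraries lay within a narrow range. Its log2 fold change was -0.03 ± 0.09 (SE), with a 95% interval of -0.21 to 0.16 that leaves out a change of the size seen for SDHC, and an edgeR adjusted p of 0.825.

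SDHB carries the iron-sulphur clusters that pass electrons from the flavin to ubiquinone. SDHB (ENSG00000117118, chromosome 1, 17018722 to 17054032, minus strand) had 59.1, 50.8 and 54.6 CPM in sgGPR91 and 51.3, 46.6 and 36.6 CPM in sgcon. The groups overlapped, since sgcon replicate 1 lay above sgGPR91 replicate 2, and sgcon replicate 3 was the lowest library. On the deposited FPKM, which is scaled to library totals alone, they did not overlap (22.04 to 25.3 FPKM in sgGPR91 and 16.1 to 21.7 FPKM in sgcon). Means were 54.8 ± 4.15 CPM in sgGPR91 and 44.8 ± 7.52 CPM in sgcon (SD, n = 3 each). The log2 fold change was 0.28 ± 0.11 (SE), with an edgeR adjusted p of 0.0494, just past the threshold. The call ended under 7 of 15 alternatives. It ended without sgcon replicate 3, where the log2 fold change was 0.17 (adjusted p = 0.153), without sgcon replicate 2 (adjusted p = 0.088), and without sgGPR91 replicate 1, 2 or 3 (adjusted p = 0.19, 0.053 and 0.108, all from edgeR).

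SDHA, the flavoprotein subunit that binds and oxidises succinate, was counted at a level far below its partners. SDHA (ENSG00000073578, chromosome 5, 218241 to 257082, plus strand) had 33, 35 and 49 reads in sgGPR91 and 36, 45 and 41 reads in sgcon, or 3.74, 4.23 and 5.78 CPM and 4.02, 4.45 and 5.68 CPM. The groups overlapped throughout, with a log2 fold change of -0.03 ± 0.26 (SE) and a 95% interval of -0.57 to 0.51 (edgeR adjusted p = 0.937), so a change as large as that of SDHB was not detectable at this depth. The direction turned, to values up to 0.11, without sgcon replicate 3 and without sgGPR91 replicate 1 or 2.

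Fumarase, encoded by FH, uses the fumarate that succinate dehydrogenase makes. FH (ENSG00000091483, chromosome 1, 241497511 to 241519799, minus strand) had 87.1, 92.1 and 91.2 CPM in sgGPR91 and 78.2, 72.3 and 65.4 CPM in sgcon. Every sgGPR91 library was higher than every sgcon library, with means of 90.1 ± 2.69 and 72.0 ± 6.41 CPM (SD, n = 3 each). The log2 fold change was 0.32 ± 0.08 (SE), with a 95% interval of 0.15 to 0.49 and an edgeR adjusted p of 0.00407. FH kept its call under all 15 alternatives, at log2 fold changes of 0.26 to 0.38.

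On the side that makes succinate, none of the 4 genes was called. OGDH (ENSG00000105953, chromosome 7, 44606572 to 44709066, plus strand), the thiamine-dependent subunit of the 2-oxoglutarate dehydrogenase complex, had 104.1, 120.2 and 111.4 CPM in sgGPR91 and 92.4, 111.6 and 111.4 CPM in sgcon. The groups overlapped, and the log2 fold change was 0.09 ± 0.08 (SE, edgeR adjusted p = 0.421). Its 95% interval ran from -0.09 to 0.27.

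SUCLG1 (ENSG00000163541, chromosome 2, 84423528 to 84460045, minus strand) encodes the alpha subunit that both forms of succinyl-CoA ligase share. It had 72.7, 73.1 and 64.9 CPM in sgGPR91 and 72.0, 69.8 and 57.6 CPM in sgcon, with the groups overlapping. The log2 fold change was 0.08 ± 0.09 (SE), with a 95% interval of -0.12 to 0.27 and an edgeR adjusted p of 0.536.

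The beta subunit decides which nucleotide the ligase forms. SUCLG2 (ENSG00000172340, chromosome 3, 67360460 to 67654612, minus strand), of the GTP-forming enzyme, had 45.7, 48.8 and 39.0 CPM in sgGPR91 and 52.7, 54.1 and 48.2 CPM in sgcon. The groups overlapped only in that sgGPR91 replicate 2 lay above sgcon replicate 3. Its log2 fold change of -0.22 ± 0.10 (SE) had a 95% interval of -0.42 to -0.01 and did not pass after adjustment (unadjusted p = 0.0375, edgeR adjusted p = 0.081). Without sgcon replicate 3 it passed, at -0.26 (edgeR adjusted p = 0.0344).

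SUCLA2 (ENSG00000136143, chromosome 13, 47745736 to 48037968, minus strand), the beta subunit of the ATP-forming enzyme, had 23.9, 26.8 and 28.8 CPM in sgGPR91 and 25.4, 27.0 and 22.7 CPM in sgcon. The groups overlapped, with a log2 fold change of 0.08 ± 0.11 (SE), a 95% interval of -0.17 to 0.32 and an edgeR adjusted p of 0.62.

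SLC25A10 (ENSG00000183048, chromosome 17, 81712236 to 81721016, plus strand) encodes the mitochondrial dicarboxylate carrier, which exchanges succinate or malate for phosphate across the inner membrane. It had only 22, 14 and 26 reads in sgGPR91 and 14, 20 and 23 reads in sgcon, or 2.49, 1.69 and 3.06 CPM and 1.56, 1.98 and 3.19 CPM. The groups overlapped fully. The log2 fold change of 0.14 ± 0.36 (SE) had a 95% interval of -0.62 to 0.90 (edgeR adjusted p = 0.781), and it turned to about -0.06 without sgcon replicate 1 and without sgGPR91 replicate 3.

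**Figure D2:**
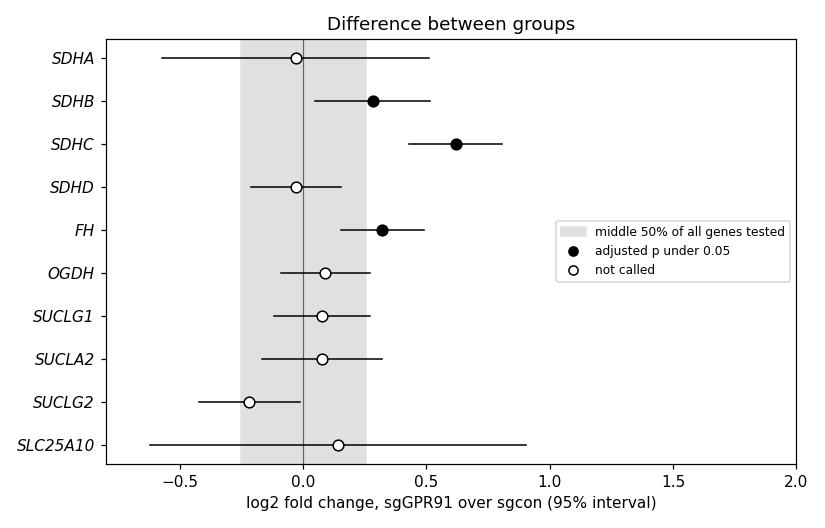
Log2 fold change of each gene, sgGPR91 over sgcon, with its 95% interval from edgeR's quasi-likelihood fit. Filled points had an adjusted p under 0.05, and the grey band holds the middle 50% of all 12701 genes tested. SDHC, FH and SDHB are filled, and the intervals of SDHA and SLC25A10 are the widest of the 10.

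The sgcon libraries differed among themselves for several of these genes. Of the 10, 7 had their lowest sgcon level in replicate 3, which also had the smallest total of all libraries, and 3 in replicate 1. The CPM of the 10 genes added up to 546.1, 563.2 and 542.1 in sgGPR91 and to 486.8, 507.8 and 451.7 in sgcon. In sgGPR91 the lowest level was in replicate 1 for 4 genes and in replicates 2 and 3 for 3 genes each.

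Levels of different genes were compared on the deposited FPKM, which divides the count by the listed gene length and by the library's total. Averaged over the 6 libraries, the order was SDHC at 44.5, SDHB at 21.4, OGDH at 20.8, SUCLG1 at 16.4, SUCLG2 at 15.6, SDHD at 15.5, FH at 8.67, SUCLA2 at 2.90, SLC25A10 at 0.891 and SDHA at 0.531 FPKM, where the median of all genes tested was 6.56 FPKM. Over the 6 libraries, SDHC, FH and SUCLA2 each stood clear of their neighbours in this order. The ranges of SDHB and OGDH overlapped, those of OGDH and SUCLG1 overlapped at their ends (17.5 to 23.3 and 14.1 to 17.7 FPKM), those of SUCLG1, SUCLG2 and SDHD overlapped, and so did those of SLC25A10 and SDHA.

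This order depends on the length that a gene is given. The listed length was 9350 bases for FH, 8879 for SUCLA2 and 8765 for SDHA. APPRIS ranks the main isoforms of each gene in GENCODE 29, and the longest of those with the best rank was taken as the principal transcript. Those of FH, SUCLA2 and SDHA have 1797, 2192 and 2390 bases. Rescaled to those lengths, SUCLG1 stood at 46.3, FH at 45.1, SDHB at 43.2, SDHD at 30.0, OGDH at 26.0, SUCLG2 at 20.4, SUCLA2 at 11.8, SDHA at 1.95 and SLC25A10 at 1.24 FPKM. The principal transcript of SDHC, 13566 bases, is longer than the listed 1902, and its level was not rescaled. That transcript is also the longest of SDHC, and GENCODE 29 ends the gene at 161375340, past the deposited end of 161363206. At that length its level would be lower, so the first place of SDHC depends on which transcript is taken. A difference between groups is untouched by the length.

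SDHA remained far below SDHB on either length, by 40.3 times on the listed and 22.2 times on the principal transcript length. In the deposited table another row on the same strand, ENSG00000286001, spans 99.9% of the SDHA interval and held 14, 6 and 25 reads in sgGPR91 and 10, 22 and 3 in sgcon. SLC25A10 is likewise overlapped over 94.6% of its interval by ENSG00000262660, and SDHD over 99.8% by ENSG00000255292, both on the same strand and both with 0 reads in all 6 libraries. Among stretches of 50 bases from the genes' protein-coding GENCODE 29 transcripts, 56.9% of those of SLC25A10 also occur in that overlapping gene, and 11.1% of those of SDHD in the one that overlaps it. For SDHA, 20.03% of such stretches occur in other transcripts, led by the pseudogene SDHAP3 with 11.03%, and 2.56% of stretches of 100 bases do. SDHB and SUCLG1 share none with other transcripts at either length, and the shares at 50 bases were 16.5% for SDHD, 12.9% for SUCLG2 (all in the pseudogene SUCLG2P2), 9.56% for SUCLA2, 8.69% for SDHC, 5.89% for FH and 1.34% for OGDH. Matches were sought on both strands. Most SDHC stretches come from its transcript of 13566 bases, against 1902 listed, so its share may not describe the counted row. The largest part, 4.07%, was in CFAP126 on the opposite strand. The sources used here do not give how reads that fit more than 1 gene were counted, so the levels of SDHA and SLC25A10 are uncertain, and its part in their low counts was not tested.

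**Figure D3:**
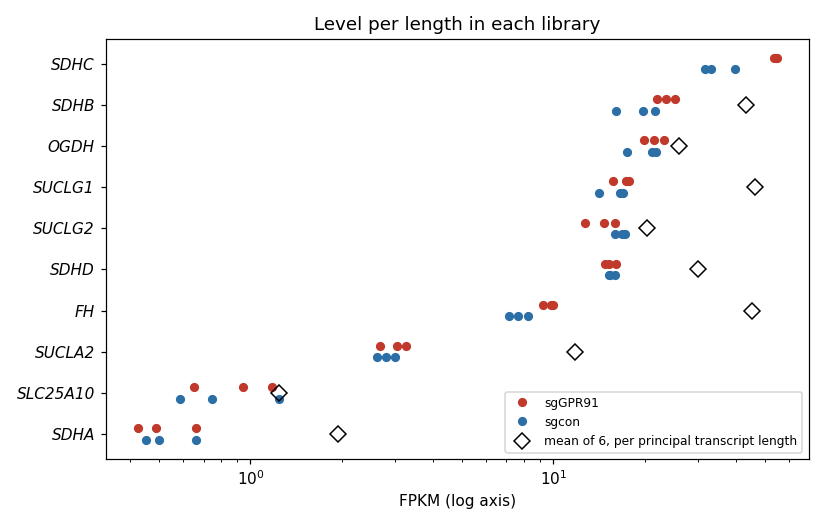
Deposited FPKM of each gene in each library on a log axis, ordered by the mean over 6 libraries, with sgGPR91 libraries above sgcon libraries in each row. Diamonds give the mean over 6 libraries after rescaling to the principal transcript length, which puts FH at 45.1 in place of 8.67 FPKM and leaves SDHA and SLC25A10 lowest.

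The balance between subunits was described as a ratio of FPKM within each library, with no test. SDHC stood at 2.29 times the SDHB level in sgGPR91 and 1.82 times in sgcon. On the log2 scale that ratio was 1.11, 1.28 and 1.20 in sgGPR91 and 0.61, 1.00 and 0.98 in sgcon, so every sgGPR91 library was above every sgcon library. The ratio of SDHD to SDHB was lower in every sgGPR91 library, at log2 values of -0.73, -0.45 and -0.68 against -0.44, -0.36 and -0.07. The groups barely separated, with sgGPR91 replicate 2 at -0.454 and sgcon replicate 1 at -0.444. In sgcon, replicate 3, where SDHB was lowest, stood apart from replicates 1 and 2. The ratio of FH to SDHB overlapped between the groups, with means of -1.29 ± 0.15 and -1.31 ± 0.13 (log2, SD, n = 3 each).

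For the alternative beta subunits, SUCLA2 stood at 0.207 times the SUCLG2 level in sgGPR91 and 0.168 times in sgcon. The log2 ratio was -2.46, -2.39 and -1.96 in sgGPR91 and -2.58, -2.53 and -2.61 in sgcon, higher in every sgGPR91 library. Means were -2.27 ± 0.27 in sgGPR91 and -2.57 ± 0.04 in sgcon (log2, SD, n = 3 each). In sgGPR91, replicate 3 was the highest and stood well apart from replicates 1 and 2, so the mean difference leans on that library. The SDHC to SDHB, SDHD to SDHB and SUCLA2 to SUCLG2 ratios differed between the groups by 0.33, -0.33 and 0.30 on the log2 scale, although neither SUCLA2 nor SUCLG2 was called alone. The ratio of SDHA to SDHB differed by -0.35, with means of -5.52 ± 0.37 in sgGPR91 and -5.17 ± 0.51 in sgcon (log2, SD, n = 3 each), and its libraries overlapped. So 3 of 5 ratios did not overlap between the groups. Of single genes tested, 50.9% did not overlap on CPM, but the share among gene pairs was not worked out. All ratios but SUCLA2 to SUCLG2 were taken to SDHB, so they are not separate observations.

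Promoter sequence was scanned for all of the 10 genes that had a window, and 4 windows are shown. Of these genes, SDHB (just past the threshold) and FH were called higher, and SDHA and SDHD were not called. The SDHA interval of -0.57 to 0.51 also holds the values of SDHB and FH. RefSeq (GRCh38.p14) gives windows from 250 bases before to 50 after the start for 8 of the 10 genes. SDHC, which had the largest log2 fold change of the 10, and OGDH had no window. Capitals mark the NRF1 motif (GCGCA, any base, GCGC), bound by nuclear respiratory factor 1, which drives many genes of mitochondrial respiration, and the ETS motif CCGGAAG, of the family of GABPA, another such regulator. Both strands were searched, and each sequence is written 5′ to 3′ on the gene's strand.
SDHA (chr5:218070-218369, plus strand): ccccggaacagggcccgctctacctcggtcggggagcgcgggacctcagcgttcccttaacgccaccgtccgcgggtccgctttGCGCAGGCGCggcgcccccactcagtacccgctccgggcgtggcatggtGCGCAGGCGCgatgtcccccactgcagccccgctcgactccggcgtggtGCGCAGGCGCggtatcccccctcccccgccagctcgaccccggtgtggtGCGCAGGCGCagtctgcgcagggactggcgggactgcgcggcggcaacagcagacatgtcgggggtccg
SDHB (chr1:17053983-17054282, minus strand): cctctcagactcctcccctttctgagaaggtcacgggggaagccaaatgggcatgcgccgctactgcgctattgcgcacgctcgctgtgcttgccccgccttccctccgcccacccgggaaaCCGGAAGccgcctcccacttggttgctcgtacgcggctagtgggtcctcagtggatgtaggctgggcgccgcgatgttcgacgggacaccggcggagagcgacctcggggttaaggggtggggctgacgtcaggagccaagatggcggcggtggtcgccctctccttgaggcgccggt
SDHD (chr11:112086623-112086922, plus strand): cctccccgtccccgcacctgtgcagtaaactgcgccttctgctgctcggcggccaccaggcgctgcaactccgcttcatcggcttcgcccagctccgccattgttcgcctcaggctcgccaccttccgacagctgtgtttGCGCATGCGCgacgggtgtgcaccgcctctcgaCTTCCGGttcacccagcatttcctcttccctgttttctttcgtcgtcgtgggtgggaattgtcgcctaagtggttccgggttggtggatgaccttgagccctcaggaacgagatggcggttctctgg
FH (chr1:241519706-241520005, minus strand): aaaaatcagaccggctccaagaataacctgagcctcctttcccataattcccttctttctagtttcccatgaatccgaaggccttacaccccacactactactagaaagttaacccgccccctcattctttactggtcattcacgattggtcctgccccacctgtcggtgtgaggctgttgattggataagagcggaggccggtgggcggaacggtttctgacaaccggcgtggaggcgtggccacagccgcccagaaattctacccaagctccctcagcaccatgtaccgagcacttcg

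The SDHA window holds 4 copies of the NRF1 motif, each 49 bases after the one before, beginning at -166, -117, -68 and -19 from the start. The SDHD window has 1 NRF1 motif at -110, which reads the same on both strands, and an ETS motif at -77 on the opposite strand. The SDHB window has an ETS motif at -128 and no NRF1 motif in these letters, and the FH window has neither. Of the other 4 windows, only that of SUCLA2 held the NRF1 motif and none the ETS motif, so 3 of 8 windows held NRF1 and 2 of 8 ETS. In all 27305 windows the shares were 6.28% for NRF1 and 10.7% for ETS, and in the 10264 windows of genes tested they were 11.8% and 19.1%. The SP motif GGGCGG was in 5 of 8 windows (70.4% of those of genes tested), the ERR motif AAGGTCA in 3 (2.47%), the YY1 motif AAGATGG in 2 (7.54%) and the E-box CACGTG in 0 (10.1%), and no matches of different motifs overlapped. A match describes the letters of the window only.

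Each gene was also set beside its neighbours on the chromosome. Within 5 Mb of SDHC, 74 other genes were tested, with a median log2 fold change of 0.15 and 21 called higher and 13 lower, and 11 of the 74 were above SDHC. FH had 20 such neighbours with a median of -0.05, 1 higher and 6 lower, and 2 were above FH. SDHB had 63 neighbours with a median of 0.03, 6 higher and 17 lower. Within 1 Mb the median was 0.43 over 3 neighbours of FH, 2 of them above FH, and it turned to -0.20 near SDHB and -0.29 near SDHA. SLC25A10 lay among 92 tested genes of distal chromosome 17, of which 48 were lower and 6 higher, with a median of -0.31, and 7 of them were above its log2 fold change of 0.14. Around the other 6 genes the medians ran from -0.04 near SDHD to 0.19 near SDHA.

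**Figure D4:**
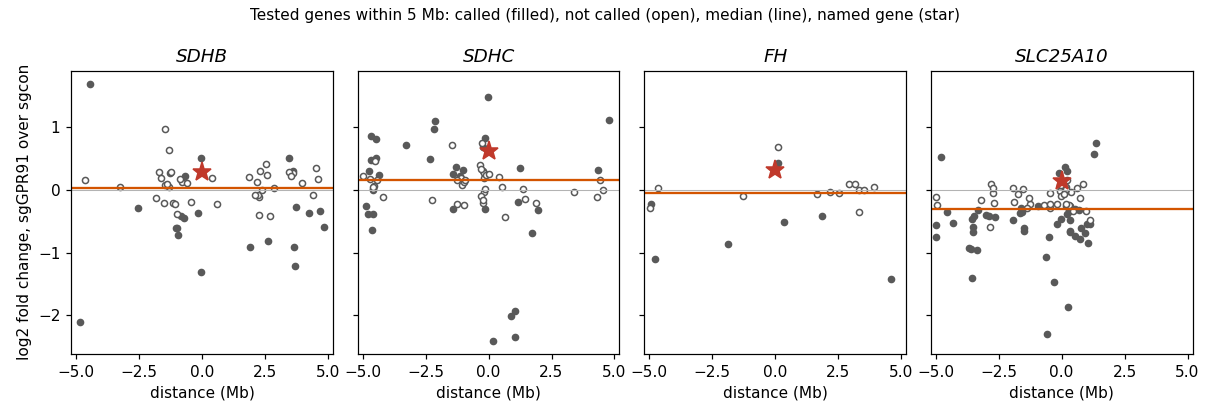
Log2 fold change, sgGPR91 over sgcon, of all genes tested within 5 Mb of SDHB, SDHC, FH and SLC25A10 against their distance from the gene. Filled points were called, the line is the neighbours' median (0.03, 0.15, -0.05 and -0.31 from left to right) and the star is the named gene.

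Genes around these 10 in metabolism were described from lists of related enzymes, 100 genes in the table, of which 90 were tested, 13 rose and 24 fell (41.1% called, the same share as over all genes). Of 30 other TCA cycle and pyruvate entry genes, 4 rose and 5 fell. IDH1, the cytosolic isocitrate dehydrogenase that makes 2-oxoglutarate and NADPH, rose to 127.2 ± 8.06 CPM in sgGPR91, against 66.4 ± 1.93 CPM in sgcon. ME1, cytosolic malic enzyme, was at 37.6 ± 0.867 and 26.3 ± 1.58 CPM (log2 fold change 0.51 ± 0.10). OGDHL, a paralogue of OGDH, fell to 35.4 ± 3.76 CPM in sgGPR91, against 87.1 ± 5.00 CPM in sgcon (log2 fold change -1.30 ± 0.09, edgeR adjusted p = 1.892e-08), while OGDH itself was not called.

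Kinases and phosphatases of pyruvate dehydrogenase were on the same list. PDK1 and PDK3, kinases that switch pyruvate dehydrogenase off, fell to 151.5 ± 13.5 and 71.4 ± 0.898 CPM in sgGPR91, against 271.0 ± 56.0 and 111.8 ± 3.00 CPM in sgcon. PDP1, a phosphatase that switches it on, was higher, at 52.0 ± 1.81 and 40.3 ± 4.03 CPM. Named after their values were seen, PDK2 fell as well (16.4 ± 1.46 and 23.4 ± 2.32 CPM), and PDK4 was at 1.87 ± 0.261 and 1.01 ± 0.282 CPM without passing (edgeR adjusted p = 0.0783). The other phosphatase, PDP2, did not pass either, at 66.7 ± 1.76 and 67.6 ± 2.08 CPM (edgeR adjusted p = 0.844). Of the complex's own subunits, also named after their values were seen, PDHX was called lower. It was at 41.6 ± 2.45 CPM in sgGPR91 and 51.7 ± 5.05 CPM in sgcon (edgeR adjusted p = 0.0129), without overlap. PDHA1, PDHB, DLAT and DLD were not called (edgeR adjusted p = 0.156, 0.554, 0.843 and 0.897).

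Among genes that help assemble succinate dehydrogenase, 1 of 4 rose. SDHAF3, which assists the iron-sulphur subunit SDHB, was at 14.5 ± 3.31 CPM in sgGPR91 and 10.1 ± 1.18 CPM in sgcon (log2 fold change 0.51 ± 0.18, edgeR adjusted p = 0.034), with overlapping libraries. Its call ended in 6 of 15 alternatives, among them 4 that left out a library (sgcon replicate 1 or 3, sgGPR91 replicate 1 or 2, edgeR adjusted p = 0.0619, 0.0651, 0.16 and 0.127). SDHAF1 went the other way without passing, at 3.72 ± 0.297 CPM in sgGPR91 and 5.15 ± 0.244 CPM in sgcon (edgeR adjusted p = 0.122). Every sgGPR91 library was lower than every sgcon library, as for 25.2% of all genes tested. Each limma alternative called 1 of the 4 lower.

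Of 9 genes that supply or use succinyl-CoA, 2 rose and 0 fell by edgeR (3 and 0 at an unadjusted p under 0.05). PCCB, a propionyl-CoA carboxylase subunit on the route from propionate to succinyl-CoA, was at 71.4 ± 1.27 CPM in sgGPR91 and 49.4 ± 3.11 CPM in sgcon. OXCT1, which releases succinate by moving CoA from succinyl-CoA to acetoacetate, was at 74.5 ± 3.97 and 58.1 ± 3.21 CPM (log2 fold change 0.36 ± 0.08).

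Of 9 tested genes of the GABA shunt and glutamine entry, 3 rose and 2 fell. Of the shunt's own enzymes, ALDH5A1 and ABAT went in opposite directions. GAD1, with 3 to 9 reads a library, and GAD2, with 0 reads, were not tested. ALDH5A1, which oxidises succinic semialdehyde to succinate, was at 24.2 ± 4.45 CPM in sgGPR91 and 16.8 ± 4.01 CPM in sgcon (log2 fold change 0.51 ± 0.17, edgeR adjusted p = 0.0219), and ABAT, the transaminase upstream of it, fell to 29.6 ± 0.962 CPM, against 48.1 ± 4.08 CPM in sgcon. The ALDH5A1 libraries overlapped, and its call ended in 4 of 15 alternatives, 3 of which left out a library (sgcon replicate 1, sgGPR91 replicate 1 or 2, edgeR adjusted p = 0.07, 0.126 and 0.0771). GOT1, the cytosolic aspartate transaminase, rose at a log2 fold change of 0.67, and SLC1A5, a glutamine transporter, fell at -0.33.

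The longest list was that of 2-oxoglutarate-dependent dioxygenases, enzymes that release succinate with each turn and that succinate and fumarate inhibit. Of 31 tested, 16 fell and 1 rose, a share of 54.8% called, and the median log2 fold change was -0.22. Over all genes tested, 41.1% were called and 21.0% were lower, and the median was -0.01. The list was chosen with earlier results of these data known, so these shares describe it and are no test of it. Without overlap, 18 of the 31 were lower, as were 25.2% of all genes tested. All 16 that fell had no overlap between the groups, and sgcon replicate 3 held the lowest sgcon level for 10 of them. The CPM of the 31 genes added up to 3426, 3511 and 3420 in sgGPR91 and to 4671, 4759 and 4093 in sgcon. Without sgcon replicate 3, 18 fell and 0 rose, and with any other single library left out 12 to 16 fell. TET1 and TET2, which oxidise 5-methylcytosine in DNA, fell to 61.8 ± 4.02 and 44.0 ± 1.88 CPM in sgGPR91, against 138.9 ± 15.7 and 94.8 ± 5.44 CPM in sgcon. KDM4C, a histone H3 lysine demethylase, fell to 35.3 ± 2.41 CPM, against 71.6 ± 6.88 CPM in sgcon. The gene that rose was PLOD3, a collagen lysyl hydroxylase, at 146.8 ± 4.11 and 126.8 ± 14.7 CPM (edgeR adjusted p = 0.0477). The PLOD3 call ended in 7 of 15 alternatives, among them every run that left out a library other than sgcon replicate 2 (edgeR adjusted p of 0.0871 to 0.141).

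Of 7 tested dicarboxylate, monocarboxylate and related carriers, 2 rose and 1 fell. SLC16A7 and SLC16A1, which encode the monocarboxylate transporters MCT2 and MCT1, rose to 31.0 ± 2.69 and 440.1 ± 23.6 CPM in sgGPR91, against 11.1 ± 2.09 and 315.6 ± 14.8 CPM in sgcon. SLC16A3, which encodes the lactate exporter MCT4, fell to 16.6 ± 1.56 CPM, against 27.5 ± 3.19 CPM in sgcon. The plasma membrane dicarboxylate transporter genes SLC13A2 and SLC13A5 had 0 reads in all libraries, and SLC13A3 had 1, 2 and 1 reads in sgGPR91 and 0, 0 and 2 reads in sgcon. Adjusted p-values of the related genes named with none were at most 0.00467 by edgeR's quasi-likelihood test.

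**Figure D5:**
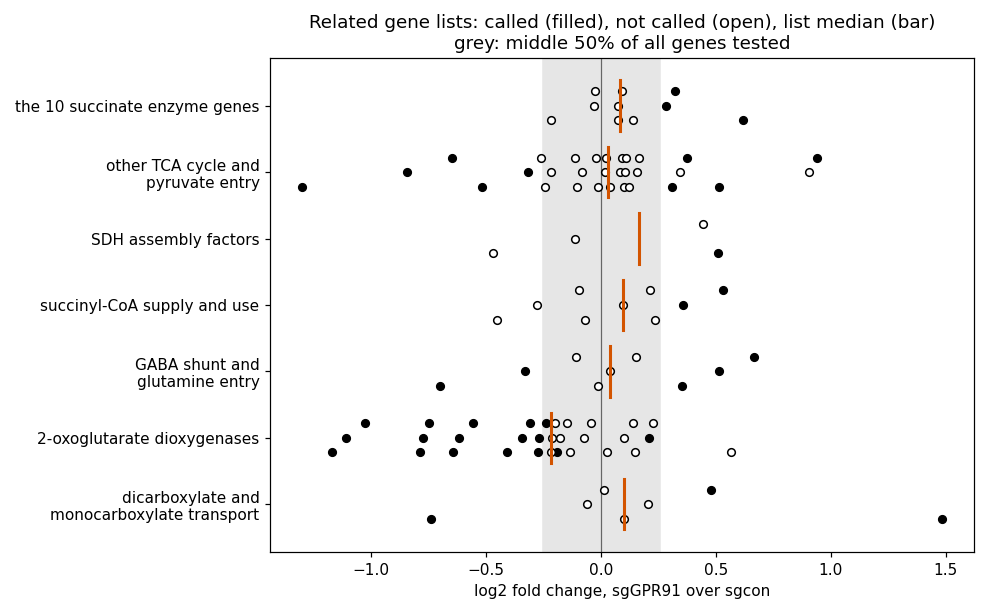
Log2 fold change, sgGPR91 over sgcon, of each tested gene in each list, with filled points for called genes, open points for the others and a bar at the list's median. Most filled points of the dioxygenase list lie below 0 (16 of 17), while of the 10 succinate enzyme genes SDHC (0.62), FH (0.32) and SDHB (0.28) lie above the grey band (the middle 50% of all genes tested) and the other 7 within it.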

How the data were processed

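RNA was measured by sequencing in 6 libraries, grouped by their titles into 3 sgGPR91 and 3 sgcon. The file headers name read counts, FPKM and gene length, and the counts are whole numbers per gene. Recomputed as counts per kilobase of listed length and scaled to the column's total, FPKM matched the deposited values to a relative difference of 5.1e-15. The submitters' processing notes name HISAT2, Bowtie2 and RSEM. Versions, roles, strand setting and genome build were not given in the sources used here. GENCODE 29 (GRCh38) held 19820 of the identifiers, with an identical start for 61.0%, and coordinates are printed as deposited.

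Counts were fitted with edgeR 4.0.16 in R 4.3.3 (filterByExpr with minimum count 10 and total 15, TMM scaling, quasi-likelihood test of sgGPR91 against sgcon, Benjamini-Hochberg adjustment over all genes tested, called under 0.05). The procedure was tested on simulated data. CPM values are TMM-scaled, the SE is the absolute log2 fold change over the square root of F, and 95% intervals use the fit's degrees of freedom. A floor of 3 reads is 0.296 to 0.416 CPM in these libraries and covers counting error only. Alternatives were DESeq2 1.42.0, other scalings and filters, limma 3.58.1 on log2(FPKM + 1) and log2(FPKM + 0.1), each library left out and a replicate block. From each related list, up to 3 called genes a direction with the largest fold change and a mean of at least 5 CPM are named, except 1 that is not reported here. Shared stretches and overlapping rows were counted after the data were seen. The genes and lists were chosen with earlier results of these data known. No 2 libraries of a group were duplicates by a chi-square comparison of their counts.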

Additional observations from a re-analysis of the deposited data

How the results depend on the processing

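The count of the 10 genes called was 2 to 4 over all 15 alternatives against 3 as reported, that of all genes 4108 to 5707 against 5221, and that of related genes 31 to 40 against 37. SDHC and FH kept their calls in every alternative. The SDHB call ended with DESeq2 (log2 fold change 0.29, adjusted p = 0.0846) and with unfiltered limma at a pseudocount of 1 (0.30, adjusted p = 0.0826), and leaving out 1 library at a time gave 0.17 to 0.38 (adjusted p over all alternatives 0.00934 to 0.19). SUCLG2 gave -0.29 to -0.13 with 1 library left out (adjusted p over all alternatives 0.0344 to 0.363). With 1 library left out, the sign turned for genes near 0: SDHA ran from -0.23 to 0.11, SDHD from -0.053 to 0.00241, SUCLG1 from -0.011 to 0.13 and SLC25A10 from -0.064 to 0.44, none of them called. Whether the replicate numbers pair the libraries was not settled. Deviations of same-numbered libraries correlated weakly but positively across genes, at 0.146, 0.0169 and 0.0837. Those of differently numbered libraries correlated at -0.126 to 0.0528, and only sgGPR91 replicate 2 with sgcon replicate 3 (0.0528) was above 0. Deviations from a group's mean cancel within the group for each gene. Values above 0 for some pairs therefore push other pairs below 0, and the correlations are not separate observations. With the replicate block 5670 genes were called, 4 of the 10 among them, and SUCLG2 passed at -0.22 (edgeR adjusted p = 0.0491). With a window of 1 Mb in place of 5 Mb, the neighbours' median was -0.29 for SDHA, -0.20 for SDHB, -0.21 for SDHD, 0.24 for SUCLA2, 0.43 for FH (3 genes) and 0.11 for OGDH. Rescaling to the principal transcript length, chosen after seeing the data, gave levels of 1.95 FPKM for SDHA, 43.2 for SDHB, 30.0 for SDHD, 46.3 for SUCLG1, 20.4 for SUCLG2, 11.8 for SUCLA2, 45.1 for FH, 26.0 for OGDH and 1.24 for SLC25A10, by construction of the shorter length. For these changes other than the rescaling the cause was not tested. Counts under 50 reads a library limit SDHA and SLC25A10, where limma with its FPKM filter gave no value.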
